A study of Mus musculus with 6 samples.

Results

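The genes described here encode the adhesion receptors of the platelet surface: Gp1ba, Gp1bb, Gp9, Gp5, Gp6, Itgb3, Clec1b, Treml1 and Cd226. They were taken as the probe sets whose platform annotation gives exactly 1 gene symbol that is among these 9 names. That rule found 10 probe sets of 8 genes, among 45037 probe sets and 18193 named genes on the array. Gp1ba had no such probe set and was not analysed here. RNA came from megakaryocyte progenitors of the C57BL/6 strain, all of GATA1s genotype, in which the transcription factor GATA1 lacks its amino-terminal part. Cells were sorted as negative for lineage markers and Sca-1 and positive for c-kit, CD150 and CD41. The arrays were 3 of E13.5 fetal liver and 3 of adult bone marrow, from animals 12 to 18 weeks old. All 6 carry the same genotype, whose effect therefore cannot be read here, and tissue cannot be told apart from age. The replicates are labelled biological, with the number of animals behind each left unstated.

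Platelets stick to a damaged vessel through a small set of receptors that megakaryocytes make before platelets are shed. The GPIb-IX-V complex catches von Willebrand factor under fast flow, GPVI binds collagen, and the integrin of Itga2b and Itgb3 binds fibrinogen once it is activated. CLEC-2, encoded by Clec1b, binds podoplanin, and TLT-1, encoded by Treml1, reaches the surface from the granules when platelets are activated. In megakaryocytes these genes are switched on during maturation by GATA1 with its partners and by ETS family factors.

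Of the 8 genes with a probe set, 7 passed the filter on low signal and all 7 had a higher mean log2 signal in fetal liver than in bone marrow. Gp9, Clec1b and Treml1 rose by limma's moderated test (adjusted p under 0.05), the other 4 were not called, and none fell. Over all 11645 genes tested, 17.8% were called higher in fetal liver, 18.3% lower and 36.1% in either direction. That split depends on scaling: 2074 genes were called higher and 2134 lower as deposited, and 5377 higher and 1348 lower with each array centred on its median. Fold changes are given throughout as the log2 signal in fetal liver less that in bone marrow. Their median was 0.75 over these 7 genes and 0.04 over all genes. All fetal liver arrays lay above all bone marrow arrays for 2 of the 7 genes, Gp9 and Treml1, against 26.7% of all genes. Counted by probe set, 3 of 9 were called higher, against 11.8% of all probe sets tested. Fetal liver replicate 1 stood apart: it had the lowest fetal liver signal on all 9 filtered probe sets of these genes. Bone marrow replicate 1 was the highest bone marrow array for 6 of the 7 tested genes, a count not made over all genes. For these receptor genes replicate 1 thus mostly lay towards the other tissue on both sides. Without fetal liver replicate 1 all 7 genes were called higher, against 18.7% of all genes. The median of the 7 was then 0.86, against 0.03 over all genes. That array was picked out from these same receptor values, so larger fold changes without it were fixed in advance and are no added support. The share over all genes is not a like comparison, since that array was the lowest fetal liver array for only 4131 of 11645 genes. In bulk RNA of sorted cells, more cells of a kind and more RNA per cell cannot be told apart.

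**Figure D1:**
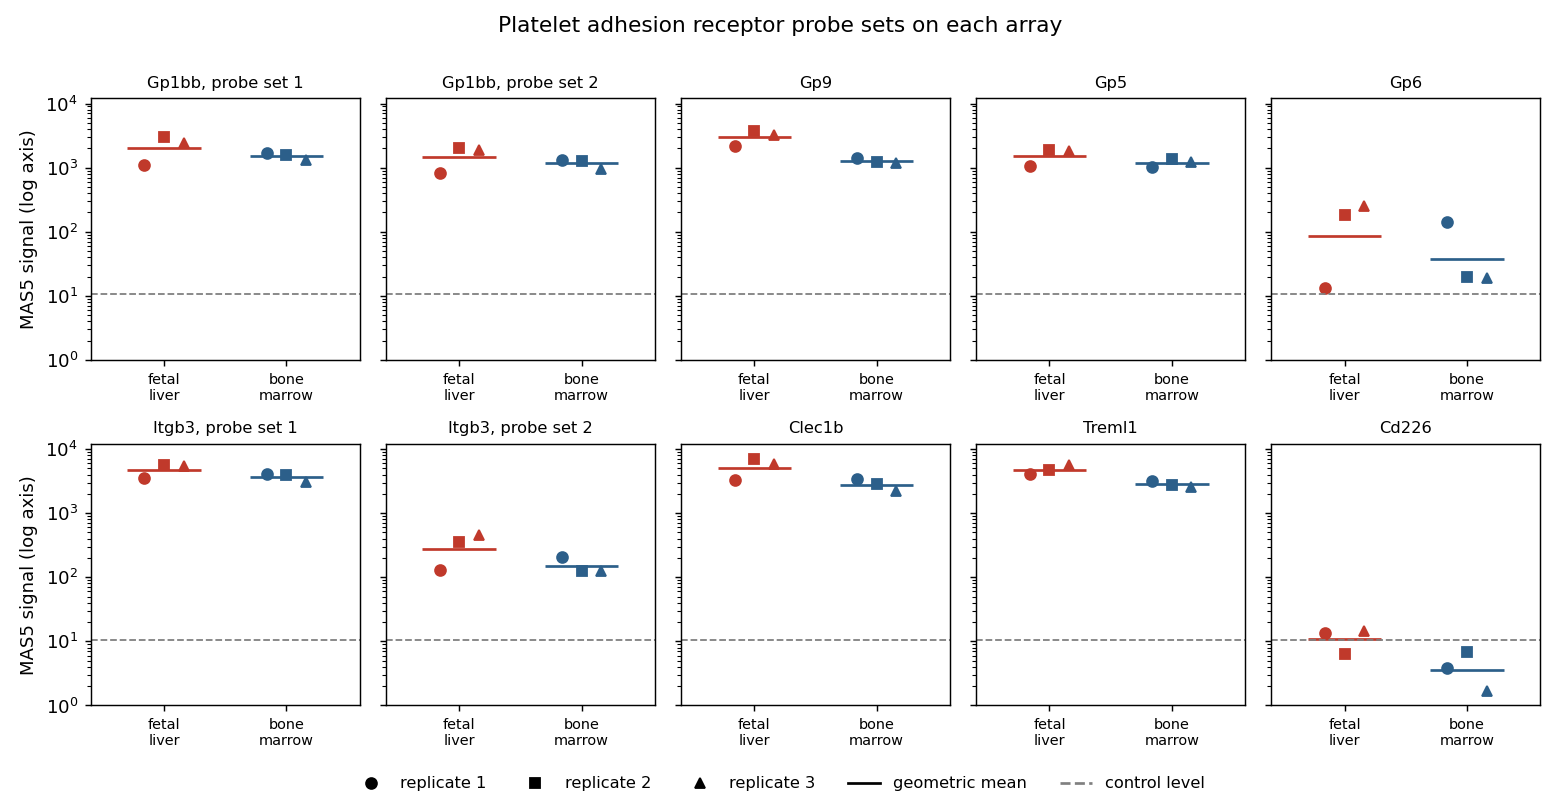
MAS5 signal (log axis) of each receptor probe set on the 3 fetal liver and 3 bone marrow arrays; symbols mark the replicate, bars the geometric mean, and the dashed line the control level of 10.6. Gp9 and Treml1 separate the tissues, fetal liver replicate 1 is low on every filtered panel, and Cd226 lies near or below the control level.

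The GPIb-IX-V complex was covered by 3 of its 4 subunits. Gp9, which encodes the small GPIX subunit needed to bring the complex to the surface, had signals of 2171, 3702 and 3268 in fetal liver, against 1437, 1210 and 1179 in bone marrow. The lowest fetal liver array lay above the highest bone marrow array. Its log2 fold change was 1.23 ± 0.18 (SE, limma adjusted p = 0.000856), a 2.34-fold difference, and it ran from 1.07 to 1.45 when each array was left out in turn. Gp9 was called under every alternative setting tried.

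Gp1bb, which encodes the chain joined to GPIbα by a disulphide bond, had signals of 1095, 3017 and 2420 in fetal liver, against 1716, 1559 and 1313 in bone marrow. Fetal liver replicate 1 lay below every bone marrow array and the other fetal liver arrays lay above all of them. The log2 fold change was 0.40 ± 0.31 (limma adjusted p = 0.357), and 0.83 ± 0.14 without fetal liver replicate 1 (adjusted p = 0.00191). It was 0.10 without fetal liver replicate 2 (adjusted p = 0.829) and 0.26 without replicate 3 (adjusted p = 0.624). With each array centred on its median it was 0.73 (adjusted p = 0.0753), where the median of all genes was 0.38. A second probe set of Gp1bb gave 825, 2014 and 1899 in fetal liver, against 1298, 1273 and 950.1 in bone marrow, with the same array out of place. The 2 probe sets followed each other over the 6 arrays at r = 0.984.

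Gp5 encodes the subunit that thrombin cleaves and that the complex does not need to reach the surface. It had signals of 1076, 1855 and 1805 in fetal liver, against 1031, 1343 and 1225 in bone marrow. Here too fetal liver replicate 1 fell within the bone marrow range while the other fetal liver arrays lay above it. The log2 fold change was 0.36 ± 0.20 (limma adjusted p = 0.198), and 0.62 ± 0.13 without that array (adjusted p = 0.00532). It was 0.22 without fetal liver replicate 2 (adjusted p = 0.477) and 0.26 without bone marrow replicate 1 (adjusted p = 0.423). With each array centred on its median Gp5 was called (0.70, adjusted p = 0.0271). Under that scaling 46.2% of all genes were called higher, and the median of all genes was 0.38.

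Whether the subunits changed by unequal amounts was read from the log2 difference between 2 subunits on each array. For Gp9 minus Gp1bb that difference was 0.30 to 0.99 in fetal liver and -0.37 to -0.15 in bone marrow. For Gp9 minus Gp5 it was 0.86 to 1.01 in fetal liver and -0.15 to 0.48 in bone marrow. Neither pair overlapped between tissues, fetal liver replicate 1 included, and the tissue means differed by 0.83 and 0.86 log2 units. The 2-sided exact permutation test gave p = 0.1 for each, the smallest that 3 against 3 arrays allow, and 0.15 adjusted over the 3 pairs. For Gp1bb minus Gp5 the ranges overlapped, 0.03 to 0.70 in fetal liver and 0.10 to 0.73 in bone marrow, with a mean difference of 0.03 (exact p = 1).

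The bases before the start of 5 of these genes are shown because Gp9, Clec1b and Treml1 were called and because Gp1bb and Gp5 belong to the complex of Gp9. RefSeq windows of assembly GRCm38.p6 were found for 7 of the 9 names, and the 250 bases before the listed start are used. Gp9 lies at chr6:87777820-87778069 (plus strand), Gp1bb at chr16:18622404-18622653 (minus), Gp5 at chr16:30310782-30311031 (minus), Clec1b at chr6:129397047-129397296 (plus) and Treml1 at chr17:48359666-48359915 (plus). Each is written 5′ to 3′ towards its gene, and capitals mark GATAA, the core bound by GATA factors, and GGAAG, a core of ETS factors, on either strand.
Gp9: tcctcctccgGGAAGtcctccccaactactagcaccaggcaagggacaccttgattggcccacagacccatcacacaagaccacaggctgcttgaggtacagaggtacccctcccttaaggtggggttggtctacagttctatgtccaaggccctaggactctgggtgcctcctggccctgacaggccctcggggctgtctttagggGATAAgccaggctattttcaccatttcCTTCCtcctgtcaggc
Gp1bb: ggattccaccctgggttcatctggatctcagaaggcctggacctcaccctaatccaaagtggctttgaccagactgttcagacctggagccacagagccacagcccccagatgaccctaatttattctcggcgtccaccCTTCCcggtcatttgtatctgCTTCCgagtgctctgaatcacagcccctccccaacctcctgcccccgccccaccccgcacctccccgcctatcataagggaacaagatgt
Gp5: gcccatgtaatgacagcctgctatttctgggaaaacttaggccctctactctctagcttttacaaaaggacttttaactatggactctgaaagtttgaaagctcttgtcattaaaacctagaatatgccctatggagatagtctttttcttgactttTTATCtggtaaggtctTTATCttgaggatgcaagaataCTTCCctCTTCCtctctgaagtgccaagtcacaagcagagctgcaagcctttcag
Clec1b: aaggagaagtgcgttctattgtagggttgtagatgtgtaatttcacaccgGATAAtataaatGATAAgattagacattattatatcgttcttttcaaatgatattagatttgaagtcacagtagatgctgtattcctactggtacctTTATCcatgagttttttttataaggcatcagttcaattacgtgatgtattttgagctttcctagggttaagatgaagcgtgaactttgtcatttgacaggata
Treml1: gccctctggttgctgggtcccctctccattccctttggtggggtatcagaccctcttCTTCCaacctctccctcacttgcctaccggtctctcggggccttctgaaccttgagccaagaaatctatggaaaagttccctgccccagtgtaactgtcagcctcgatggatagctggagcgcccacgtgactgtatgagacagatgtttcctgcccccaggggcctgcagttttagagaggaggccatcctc
GATAA was found once in the Gp9 window, in 2 places in that of Gp5 and in 3 in that of Clec1b, and not in those of Gp1bb and Treml1. GGAAG was found in 2 places in each of the windows of Gp9, Gp1bb and Gp5, in 1 in that of Treml1, and not in that of Clec1b. Counting Gp1ba and Gp6 too, 5 of 7 windows held GATAA, 5 held GGAAG and 3 held both. Among 32851 windows of this length in the table, 22.6% held GATAA, 64.1% GGAAG and 13.2% both. No GATAA match overlapped a GGAAG match in these 7 windows. These are matches of letters and say nothing about whether a factor is bound.

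Gp6 encodes GPVI, the collagen receptor that signals through the Fc receptor gamma chain. Its probe set gave 13.1, 184 and 254 in fetal liver, against 140, 19.4 and 18.9 in bone marrow. Replicate 1 was the low array in fetal liver and the high array in bone marrow, and 3 of the 6 values, 13.1 to 19.4, lay close to the control level of 10.6 taken from bacterial control probe sets. The log2 fold change of 1.19 ± 1.12 had the widest error of the 7 genes (limma adjusted p = 0.441). Leaving out 1 array moved it from 0.40 without fetal liver replicate 3 (adjusted p = 0.828) to 2.54 ± 0.77 without fetal liver replicate 1 (adjusted p = 0.0297), the only one of the 6 runs that called it. It was 0.63 without fetal liver replicate 2, 2.15 without bone marrow replicate 1, 0.72 without bone marrow replicate 2 and 0.70 without bone marrow replicate 3. Fcer1g, the gamma chain itself, gave 3687, 5561 and 5208 in fetal liver, against 4139, 3899 and 3999 in bone marrow (log2 fold change 0.24 ± 0.14, adjusted p = 0.205, and 0.42 without fetal liver replicate 1, adjusted p = 0.00287).

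Itgb3 encodes the beta chain shared by the fibrinogen receptor and the vitronectin receptor. Its brighter probe set gave 3536, 5578 and 5512 in fetal liver, against 4027, 3937 and 3010 in bone marrow. Fetal liver replicate 1 lay within the bone marrow range and the other fetal liver arrays lay above it. The log2 fold change was 0.40 ± 0.18 (limma adjusted p = 0.117), and 0.61 ± 0.13 without that array (adjusted p = 0.00500). It was 0.26 without bone marrow replicate 3 (adjusted p = 0.345) and 0.28 without fetal liver replicate 2 (adjusted p = 0.310). With each array centred on its median Itgb3 was called (0.73, adjusted p = 0.0137). Under that scaling 46.2% of all genes were called higher, and the median of all genes was 0.38. Its dimmer probe set gave 128, 360 and 460 in fetal liver, against 204, 127 and 124 in bone marrow, with a log2 fold change of 0.91 ± 0.42 (adjusted p = 0.146 over all probe sets). The alpha chains that pair with it were not called: Itga2b had a log2 fold change of 0.01 ± 0.17 (0.22 without fetal liver replicate 1) and Itgav, the alpha chain of the vitronectin receptor, 0.14 ± 0.07. Itga2b encodes CD41, for which the cells of both tissues were sorted, and the part of that sort in its value was not tested.

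Clec1b encodes CLEC-2, which platelets need to keep blood and lymph vessels apart in development. It had signals of 3287, 7109 and 5871 in fetal liver, against 3402, 2809 and 2220 in bone marrow. The groups overlapped, since fetal liver replicate 1 lay just below bone marrow replicate 1. The log2 fold change was 0.90 ± 0.26 (limma adjusted p = 0.0244), a 1.86-fold difference, and 1.22 ± 0.16 without fetal liver replicate 1 (adjusted p = 0.000519). Its adjusted p missed the threshold when fetal liver replicate 2 (0.0832) or 3 (0.0788) or bone marrow replicate 2 (0.0613) or 3 (0.0824) was left out, and with no variance trend (0.0732).

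Treml1, the gene of the granule membrane receptor TLT-1, had signals of 4136, 4665 and 5675 in fetal liver, against 3226, 2796 and 2528 in bone marrow. The tissues did not overlap, and fetal liver replicate 1 lay closer to its group here than on any other filtered receptor probe set, lower than the other fetal liver arrays by 0.31 log2 units on average. The log2 fold change was 0.75 ± 0.13 (limma adjusted p = 0.00194), and it ran from 0.63 to 0.86 when each array was left out in turn. Cd226, a receptor for the nectin-like protein Pvr that T and NK cells also carry, was not measurably above background. Its signals were 13.7, 6.27 and 14.4 in fetal liver, against 3.90, 6.77 and 1.66 in bone marrow, so 2 fetal liver arrays and no bone marrow array passed the control level. It failed the filter and no fold is given.

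**Figure D2:**
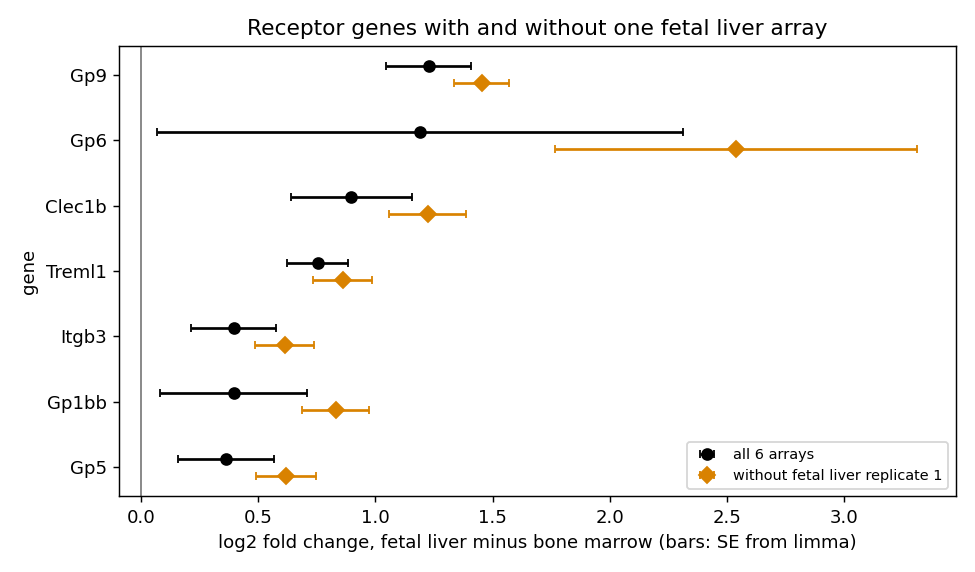
Log2 fold change (fetal liver less bone marrow) with the SE from limma, for the 7 tested receptor genes over all 6 arrays (circles) and without fetal liver replicate 1 (diamonds). Every value is above 0. Each is larger without that array, for example 0.62 against 0.36 for Gp5 and 2.54 against 1.19 for Gp6. This had to follow, since that array is the lowest fetal liver array for each of the 7 genes.

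Fetal liver replicate 1 differed from the other fetal liver arrays in more than these receptors. The median receptor gene lay 0.77 log2 units lower on it, against 0.0040 higher for the median of all genes tested. It was the lowest fetal liver array for 7 of 7 receptor genes and for 4131 of 11645 genes. Granule cargo genes lay lower by a median of 0.67 (lowest for 11 of 13), and megakaryocyte markers by 0.53 (10 of 11). In contrast, 20 early-response and heat shock genes lay higher on it by a median of 1.13 log2 units. It was the highest fetal liver array for 16 of them. This list was added after values were seen, so it is no independent support, and the share of all genes highest on that array was not counted. Of these 20 genes 15 were called lower in fetal liver and 0 higher, against 18.3% and 17.8% of all genes. Their summed signal was 56080, 44900 and 32093 in fetal liver, against 84049, 84045 and 85066 in bone marrow. The part of these shifts in the receptor values was not tested.

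One probe set annotated to both Septin5 and Gp1bb was outside the rule and moved the other way; it was singled out after its values were seen. Septin5 encodes a septin of the cell cortex, its gene span overlaps that of Gp1bb in the RefSeq annotation, and the Gp1bb window printed above lies inside it. In human cells, transcripts that run from SEPT5 into GP1BB are known. The probe set gave 19.0, 39.2 and 30.9 in fetal liver, against 118, 293 and 288 in bone marrow, with no overlap. Its log2 fold change was -2.92 ± 0.40 (limma adjusted p = 0.000598 over 27022 probe sets, of which 26.8% were called), while the 2 Gp1bb probe sets had 0.40 and 0.34. Which of the overlapping transcripts it detects was not tested.

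**Figure D3:**
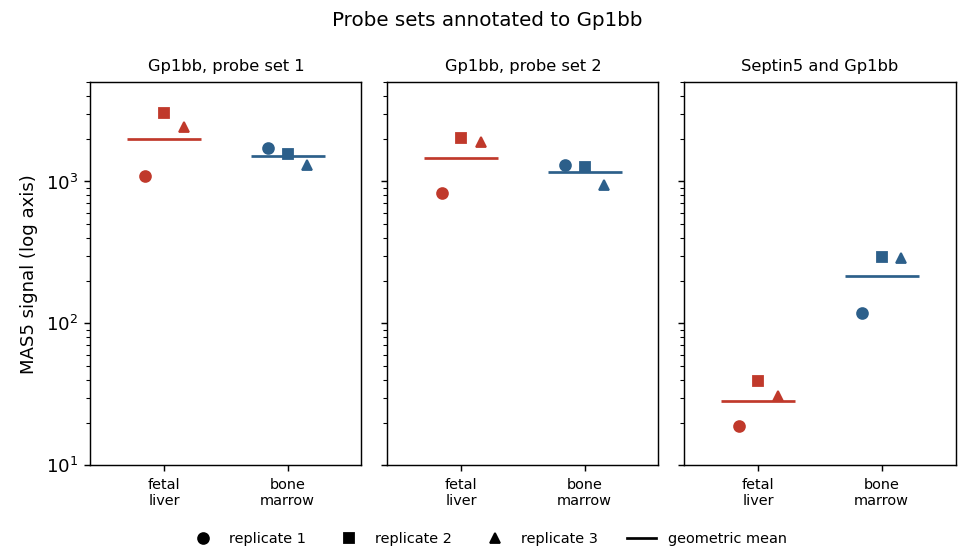
MAS5 signal (log axis) of the 2 probe sets annotated to Gp1bb alone and of the probe set annotated to Septin5 and Gp1bb, on the fetal liver and bone marrow arrays; bars are geometric means. The first 2 panels overlap between tissues through fetal liver replicate 1, and in the last every fetal liver array (19.0 to 39.2) lies below every bone marrow array (118 to 293).

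The receptor genes varied together over the arrays. Pairwise Pearson correlations of log2 signal ran from 0.60 to 0.96, with a median of 0.82 over 21 pairs and 6 arrays that share the tissue difference and the low replicate. The 5 other genes closest to the mean profile of Gp9, Gp1bb and Gp5 were Snx25, Prkab2, Nars, Araf and Gtf2i, at r = 0.992 to 0.996 over the same 6 arrays. Prkab2, a subunit of AMP-activated kinase, had the largest fold change of these, 0.82 ± 0.27 (limma adjusted p = 0.0389). It had signals of 497, 1121 and 1019 in fetal liver, against 485, 456 and 464 in bone marrow. Its low fetal liver array was replicate 1, which follows from choosing genes alike to a profile in which that array is low.

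Other genes of the same adhesion system were taken as lists by role. Of 52 partners, ligands, signalling molecules and sheddases of the receptors, 44 were tested, and 10 were called higher and 3 lower, with a median log2 fold change of 0.10; over all genes 17.8% were called higher and 18.3% lower. Without fetal liver replicate 1 the counts were 15 higher and 3 lower, with 18.7% of all genes called higher, and the median was 0.19. That array was the lowest fetal liver array for 11 of 15 partners, 18 of 23 signalling genes, 2 of 4 ligands and 0 of 2 sheddases. Larger counts without it, here and in the lists below, are therefore no added support. Among 15 membrane partners, F11r, a junctional adhesion molecule, rose (0.58 ± 0.18, limma adjusted p = 0.0338) and Ceacam1, an inhibitory receptor, fell (-2.58 ± 0.28, adjusted p = 0.000121). Ceacam1 had signals of 187 ± 25.6 in fetal liver and 1176 ± 466 in bone marrow (SD, n = 3 each), so the groups lay far apart. The tetraspanin gene Cd9 had -0.16 ± 0.24 (0.15 without fetal liver replicate 1), Itga6 -0.19 ± 0.08, and Itga2, the alpha chain of the other collagen receptor, 0.60 ± 0.35; none of these was called.

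Of 10 ligands with a probe set only 4 passed the filter on low signal. Of those 4 tested ligands 2 rose and 1 fell, beside 17.8% called higher and 18.3% lower over all genes. Thbs1, which encodes the adhesive granule protein thrombospondin-1, rose to 3156 ± 368 in fetal liver, against 665 ± 239 in bone marrow (log2 fold change 2.31 ± 0.24, limma adjusted p = 9.87e-05). Fn1, which encodes fibronectin, fell to 79.9 ± 15.3 in fetal liver, against 1047 ± 187 in bone marrow (-3.71 ± 0.20, adjusted p = 2.73e-06). Pvr, a ligand of the Cd226 product, rose (0.77 ± 0.24, adjusted p = 0.0345), though not without fetal liver replicate 1 (0.64, adjusted p = 0.0947). Vwf, the ligand of the GPIb complex, had signals of 1427, 3324 and 3028 in fetal liver, against 4184, 3955 and 3399 in bone marrow. Every fetal liver array lay below every bone marrow array, opposite to Gp9, but the log2 fold change of -0.66 ± 0.27 was not called (adjusted p = 0.0878). It was -0.27 without fetal liver replicate 1, the lowest of the 6 arrays (adjusted p = 0.0719).

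Over all genes 17.8% were called higher and 18.3% lower, or 18.7% higher without fetal liver replicate 1. Among 23 tested signalling genes 7 rose and 1 fell, 11 and 1 without that array. The 4 largest called changes were those of the kinase gene Src (1.25 ± 0.40), the adaptor gene Grap2 (1.11 ± 0.22), Apbb1ip, which encodes the integrin activator RIAM (-0.89 ± 0.24), and Rasgrp2 (0.74 ± 0.18), which encodes the exchange factor that activates Rap1. The sheddase genes Adam10 and Adam17 had -0.10 ± 0.11 and 0.15 ± 0.09 and were not called. Of 15 transcription factors of megakaryocyte genes 5 rose and 1 fell, with a median of 0.02, beside the same 17.8% and 18.3% over all genes. Gata1 (0.49 ± 0.12), its cofactor gene Zfpm1 (0.38 ± 0.11), Gfi1b (0.75 ± 0.08), Runx1 (0.34 ± 0.10) and Tal1 (0.24 ± 0.07) rose. Of the 3 ETS family members that were not called, Fli1 had -0.09 ± 0.11, Gabpa -0.0049 ± 0.15 and Etv6 -0.05 ± 0.08, while Ets1 fell (-0.80 ± 0.11, limma adjusted p = 0.000601).

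**Figure D4:**
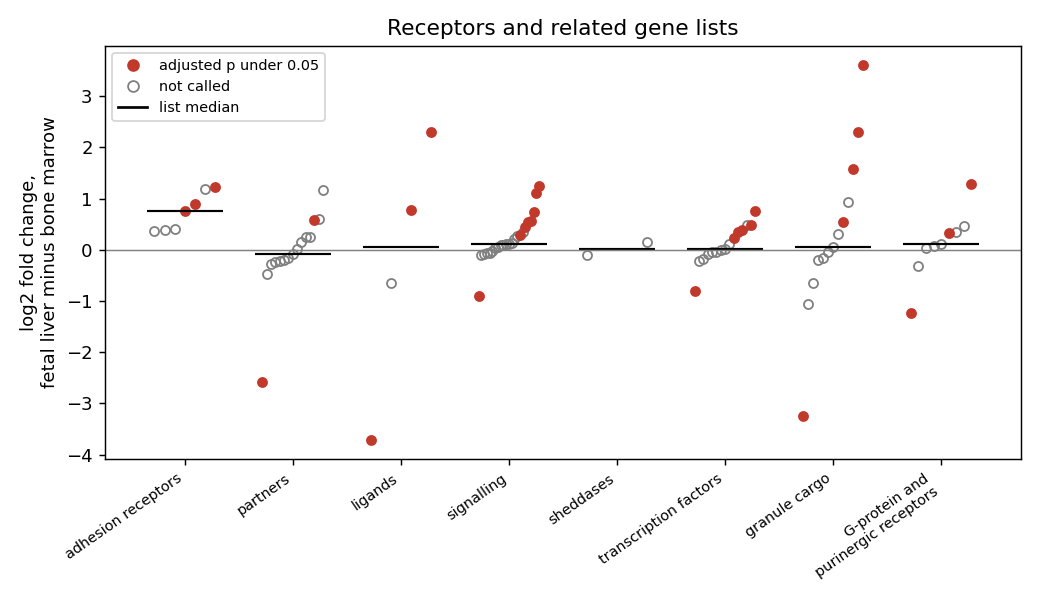
Log2 fold change (fetal liver less bone marrow) of each tested gene in the adhesion receptor list and 7 related lists; filled points passed limma's test (adjusted p under 0.05) and bars are list medians. The 7 receptor genes all lie above 0 with a median of 0.75, while the medians of the other lists lie between -0.09 and 0.11; without fetal liver replicate 1 the receptor median is 0.86 and the others lie between -0.02 and 0.38.

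Other platelet genes went in both directions. Over all genes 17.8% were called higher and 18.3% lower, or 18.7% higher without fetal liver replicate 1. Of 13 granule cargo genes 4 rose and 1 fell, with a median of 0.06, or 7 and 1 with a median of 0.38 without fetal liver replicate 1. The 4 largest called changes were Sparc (3.61 ± 0.14), Selp (-3.25 ± 0.32), Thbs1 and Pdgfb (1.58 ± 0.21). Of 9 purinergic, thrombin and prostanoid receptors 2 rose and 1 fell, with a median of 0.11, or 4 and 1 with a median of 0.30 without fetal liver replicate 1. Called over all 6 arrays were the ATP-gated channel gene P2rx1 (1.29 ± 0.22), the thrombin receptor gene F2r (0.33 ± 0.06) and the thromboxane receptor gene Tbxa2r (-1.24 ± 0.25). Of the 26 genes called in the 7 related lists, 16 kept their call whichever array was left out. F11r, Pvr, Src, Rasgrp2, Apbb1ip, Fermt3, Ptprj, Runx1, Zfpm1 and Tal1 lost it without at least 1 array, and Rasgrp2 also moved, to 0.48 without fetal liver replicate 1 and 0.20 without replicate 2, where another of its probe sets was the brightest. The difference between these lists and the adhesion receptors was not tested.

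Markers of other cells moved with tissue as well. Over all genes 18.3% were called lower in fetal liver and 17.8% higher. All 15 tested granulocyte and monocyte markers, 7 of 7 of macrophages and dendritic cells, 5 of 5 of mast cells and basophils, 6 of 7 of B cells and 3 of 5 of T and NK cells were called lower in fetal liver by the same test. The summed granulocyte and monocyte signal was 4532 to 6345 in fetal liver and 56224 to 74941 in bone marrow. That of T and NK markers was 2079 to 2463 in fetal liver and 5343 to 5607 in bone marrow. Most of that gap came from Nkg7, with means of 842 in fetal liver and 3781 in bone marrow. Prf1 went the other way, with means of 1346 and 1090, and was not called. Of 12 T and NK markers with a probe set only 5 passed the filter on low signal. Of 10 endothelial markers with a probe set only 5 passed the filter on low signal, and 4 of those were called higher. Sums over all 10 endothelial markers were 4428 to 5913 in fetal liver and 2686 to 3174 in bone marrow. Erythroid markers gave 1 higher and 5 lower of 10, hepatoblast markers 2 higher and 2 lower of 5 (1 and 2 of 4 without fetal liver replicate 1), and stem cell markers 7 lower of 9. Pax5, Tpsab1 and Hba-a1, and the ligand gene Fga, were not above the control level on any array. Megakaryocyte markers gave 4 higher and none lower of 11, with sums of 36208 to 48753 in fetal liver and 38837 to 41713 in bone marrow. The stem cell markers include the genes of c-kit and CD150, and the megakaryocyte markers those of CD150 and CD41. The cells were sorted for these proteins, and the part of that sort in the counts was not tested. The part of all these cell markers in the receptor values was not tested.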

How the data were processed

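The authors deposited an intensity for each probe set on each array, on a linear scale, and MAS5 is named per the submitters' processing notes (version not given in the sources used here). Trimming 2% from both ends left a mean of 500 on each of the 6 arrays. Of 45101 probe sets 64 were controls, 34945 carried 1 gene symbol, 932 several and 9160 none in the platform annotation; comparing Entrez identifiers with RefSeq (GRCm38.p6) changed 0 symbols. The log2 of the signal was used without an offset. A probe set was tested where its mean over the 6 arrays exceeded the 40th percentile (22.9), as 27022 did, and the brightest one represented each of 11645 genes. limma 3.58.1 (R 4.3.3) fitted tissue with an intensity trend and 4 residual degrees of freedom, with Benjamini-Hochberg adjustment at 0.05. The labels do not say which animals gave each replicate, so p-values reflect only how far these samples spread, and the number of arrays limits the precision. The control level of 10.6 is the 95th percentile of 27 bacterial control probe sets. Results were recomputed with no filter, the 60th percentile as filter, quantile normalization, arrays centred on their medians, an added offset (7.54, the 25th percentile), a floor at the control level, averaged probe sets, no variance trend, a replicate block, and each array left out. Simulated data were used to check the test. Of 214 list memberships 200 were found on the array; the others were not analysed here. Named genes were the 9 receptors, the tested partners, ligands, sheddases and transcription factors, up to 4 called genes of largest change from the other lists, and the 5 genes most alike. Genes of the related lists that lost their call without an array were named too, as were list genes not above the control level on any array. Nkg7 and Prf1 were named as bright T and NK markers. The Septin5 and Gp1bb probe set and the early-response list were added after values were seen. The members and lists were chosen with earlier results of these data known. Figures were made with matplotlib 3.10.9 in Python 3.11.15.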

Additional observations from a re-analysis of the deposited data

How the results depend on the processing

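All 7 tested receptor genes had a positive log2 fold change under every alternative in which they were tested (6 genes with the stricter filter), and Gp9 and Treml1 were called under each. The main counts of genes called were 4208 of all genes, 3 receptor genes, 3 receptor probe sets and 13 other receptor-system genes. Median centring gave 6725, 5, 6 and 25, and moved the median of all genes to 0.38; it called 5377 genes higher and 1348 lower, against 2074 and 2134. Centring moves the fold change of every gene by the same amount. The receptor median therefore had to lie 0.71 above that of all genes with and without it, which is no added support. Leaving out each array in turn gave 2813 to 4477 genes, 2 to 7 receptor genes, 2 to 9 probe sets and 7 to 18 other receptor-system genes; the 7 came without fetal liver replicate 1, and the 7 other genes without bone marrow replicate 3. Under the same leave-one-out runs the difference Gp1bb minus Gp5 ran from -0.13 to 0.23, so its sign is not settled, and the cause was not tested. The replicate block gave 3 receptor genes and 3847 genes in all, and changed no receptor call; the same-numbered arrays' deviations correlated at -0.08, 0.07 and -0.11, so the numbers were not taken as pairs. Low signal limits Gp6 and Cd226.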
